A study of Drosophila melanogaster with 7 samples.

Results

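Mitochondrial ribosomal proteins were represented on the *lolaORC4* arrays by 80 of the 10376 deposited features, which stood for 65 genes. A feature is 1 spotted cDNA clone. Members were the features with exactly 1 gene symbol in the platform's annotation where that symbol was *mRpL* or *mRpS* followed by a number, *bonsai* or *tko*. The subunit was taken from the letter of the symbol (L or S), with *bonsai* and *tko* in the small subunit, and not from a structure. By this naming the large subunit had 54 features of 43 genes and the small subunit 26 features of 22 genes. A current gene table (Release 6 plus ISO1 MT assembly) holds 75 genes that the same rule would match, and it gave every one of the 80 features a matching symbol.

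Each of the 7 arrays compared RNA of embryos homozygous for *lolaORC4* with RNA of control embryos of the same age, 10 to 12 h, and both had the *w1118* background and carried *sca-GAL4* and *UAS-tau-eGFP*, a driver and a reporter that mark the central nervous system with GFP. The mutant had the driver on 1 *lolaORC4* chromosome and the reporter on the other, and the control had the same pair without the allele. Other loci on the *lolaORC4* chromosomes may also have differed from the control, and their effects cannot be told apart from those of the allele. *lolaORC4* removes the function of 1 isoform, K, of the transcription factor Lola. Embryos of either genotype were picked by this GFP, about 300 to an RNA sample, and the labels number the sample pair of each array separately without saying what separated them, so p-values measure the spread between these samples, which may be in part technical. Whole embryos were used, so less RNA per cell and fewer cells of a type cannot be told apart, and a ratio carries no expression level with which markers of the nervous system or of any other tissue could be checked.

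The direction of the deposited ratios was not settled. By the labels, the dye of the mutant sample was Cy3 for replicates 1, 4 and 6 and Cy5 for the other 4 arrays, whereas the methods count the dyes the other way round. The deposited columns nevertheless correlated positively over all features for all 12 pairs of arrays of opposite dye orientation (r from 0.06 to 0.63) and all 9 pairs of the same orientation (r from 0.30 to 0.72), so the ratios run the same way on every array. Over the 80 members alone, r was from -0.16 to 0.54 for opposite and from 0.34 to 0.72 for same orientation. All values are given with the sign that makes both clones of *spir* positive, a gene whose protein nucleates actin filaments. Those clones, GH13327 and SD10157, had mean log2 ratios of 1.58 (standard error 0.17) and 1.15 (standard error 0.11). A negative value below thus means a change opposite to that of *spir*. It does not mean lower in the mutant, and every sign would turn if the deposited direction were read the other way.

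Mitochondria translate the few proteins encoded in their own genome on a ribosome of their own. Its rRNAs come from mitochondrial DNA, and its proteins are encoded in the nucleus, made in the cytosol and imported. The proteins made there are subunits of the respiratory chain and ATP synthase. The small subunit binds and decodes the mRNA, and the large subunit forms the peptide bond and holds the exit tunnel. In *Drosophila*, mutants of *tko*, the gene for ribosomal protein S12 of mitochondria, develop slowly and are prone to seizures after mechanical shock, and *bonsai*, the gene for S15, is needed for normal growth. Many of the proteins descend from those of the bacterial ribosome and carry the bacterial number, and others were added in the course of mitochondrial evolution.

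Most members had small negative values. The mean log2 ratio over the 7 arrays was negative for 72 of the 80 features and positive for 8, against 4826 negative among all 10376 features (46.5%). The median of the members was -0.089, with quartiles of -0.12 and -0.058, against 0.0067 over all features, with quartiles of -0.054 and 0.067. The lowest member mean was -0.33 and the highest 0.16, and no member mean was more than 1.26-fold from 1 in either direction. The spread between arrays was like that of other features, with a median residual SD of 0.13 for the members and 0.14 for all features.

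Tested 1 by 1, few members passed. At an adjusted p under 0.05 (*limma*, Benjamini-Hochberg over all features), 6 of the 80 features changed, or 7.5%, all 6 of them opposite in sign to *spir*, and 74 did not pass. Over all features 7.64% passed in either direction, 4.46% with the sign opposite to *spir* and 3.18% with the sign of *spir*. In either direction the share of members that passed was therefore close to that of all features. Opposite to *spir* it was 7.5%, against 4.46%. The test called no member with the sign of *spir*. At an unadjusted p under 0.05 there were 3 members with the sign of *spir*, against 1008 of all 10376 features. With the opposite sign there were 29 members, against 1263 of all features. In all, 40.0% of the members and 21.9% of all features had an unadjusted p under 0.05.

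**Figure D1:**
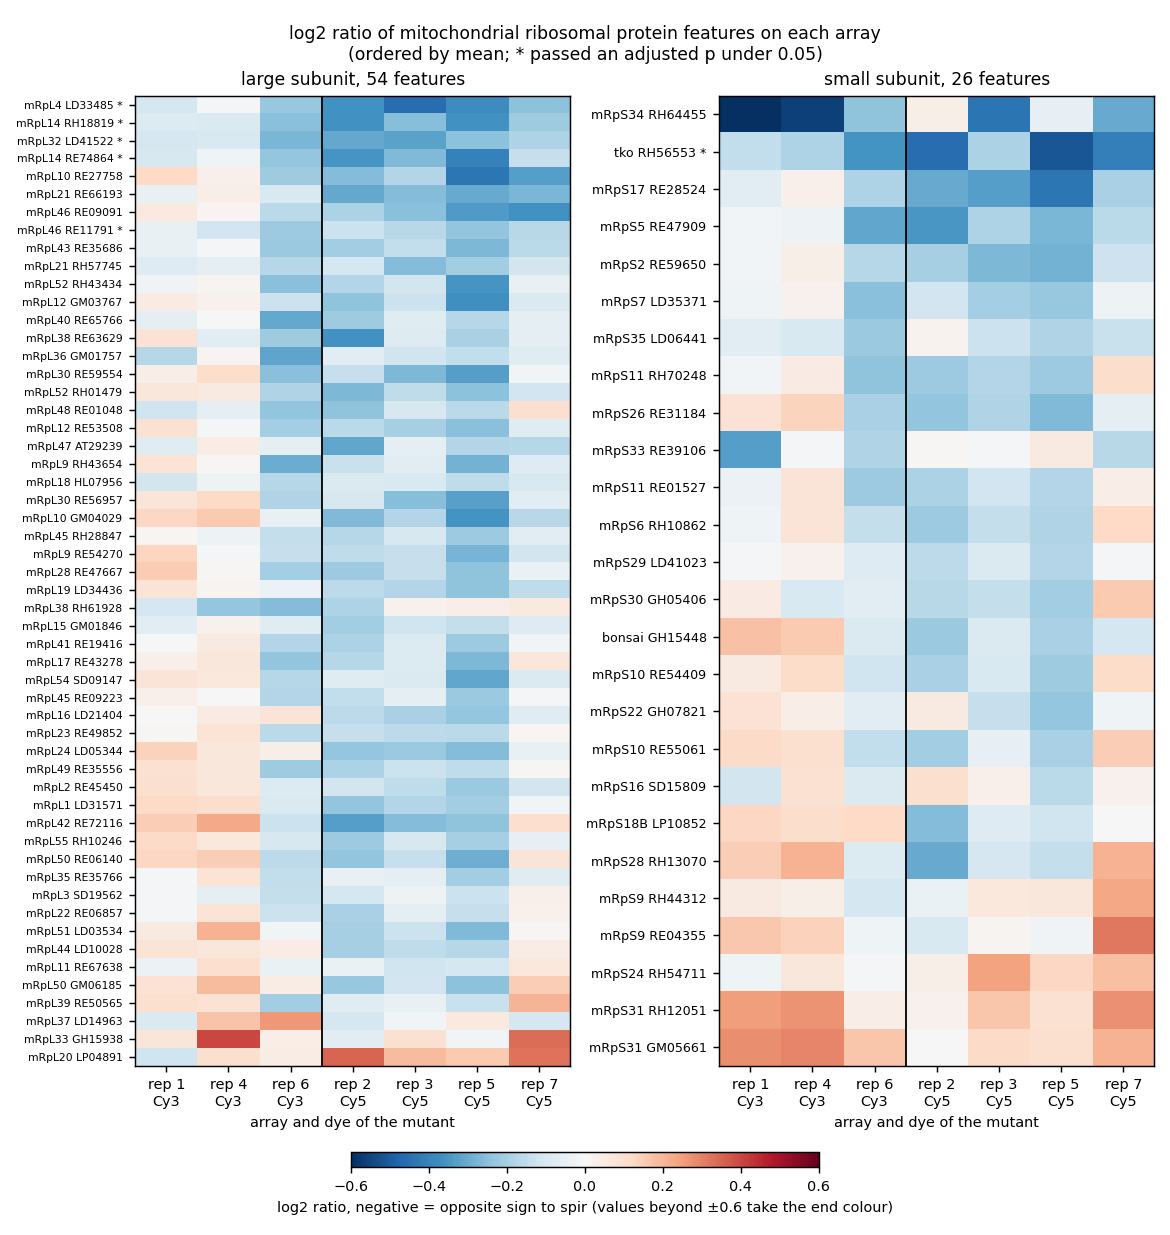
Log2 ratio of each of the 80 mitochondrial ribosomal protein features (rows, gene and clone) on each of the 7 arrays (columns, with the dye of the mutant), for the large subunit on the left and the small subunit on the right. Blue is negative, opposite to the sign of *spir*, and red is positive. Most rows are blue on replicates 2, 3, 5 and 6 and pale or red on replicates 1 and 4, and asterisks mark the 6 features that passed an adjusted p under 0.05.

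*tko* was the member with the lowest adjusted p. Its single clone, RH56553, had log2 ratios of -0.15 on replicate 1, -0.46 on replicate 2, -0.19 on replicate 3, -0.18 on replicate 4, -0.51 on replicate 5, -0.36 on replicate 6 and -0.41 on replicate 7. It was thus negative on 7 of 7 arrays, and lowest on replicates 2 and 5. The mean was -0.32 (standard error 0.054, adjusted p = 0.0067 from *limma*), a 1.25-fold difference. The S12 protein lies at the decoding site of the small subunit. *tko* was the 1 small subunit feature of 26 that passed (3.85%, against 7.64% of all features, 4.46% opposite to *spir*).

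Of the large subunit, 5 of the 54 features passed (9.26%, against 7.64% of all features, 4.46% opposite to *spir*), which stood for 4 genes. *mRpL4* encodes the relative of bacterial L4, which reaches the wall of the exit tunnel. Its clone LD33485 ranged from -0.46 on replicate 3 to -0.0082 on replicate 4 with a median of -0.25, was negative on 7 of 7 arrays, and had a mean of -0.25 (standard error 0.057, adjusted p = 0.025 from *limma*). In the current gene table *mRpL4* overlaps *CG4278*, whose clone LD28566 had a mean of 0.22 (adjusted p = 0.061) and so did not share the sign of *mRpL4*. Without replicate 2, 3, 5, 6 or 7 *mRpL4* did not pass (-0.26 to -0.22, adjusted p from 0.053 to 0.080).

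*mRpL14*, a relative of bacterial L14 at the face where the subunits join, was represented by clones RH18819 and RE74864, and both passed. RH18819 ranged from -0.36 to -0.083 with a median of -0.25, and RE74864 from -0.41 to -0.028 with a median of -0.23. Both clones were negative on 7 of 7 arrays and nearest to 0 on replicates 1 and 4. Their means were -0.23 (standard error 0.046, adjusted p = 0.015) and -0.22 (standard error 0.051, adjusted p = 0.033). RH18819 did not pass without replicate 3 or 5 (adjusted p of 0.052 and 0.053), and RE74864 did not without replicate 2, 3, 5, 6 or 7 (adjusted p up to 0.096).

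*mRpL32*, a relative of bacterial L32, had values from -0.32 on replicate 3 to -0.090 on replicate 4 with a median of -0.24 for clone LD41522. It was negative on 7 of 7 arrays, with a mean of -0.22 (standard error 0.041, adjusted p = 0.013 from *limma*). *tko* and *mRpL32* were the features that passed whichever array was left out, with adjusted p up to 0.026 and 0.046. *mRpL46*, a protein of mitochondrial ribosomes with no bacterial number, had a mean of -0.15 on clone RE11791 (standard error 0.036, adjusted p = 0.032), with values from -0.24 to -0.043. It did not pass without replicate 3, 4, 5, 6 or 7 (adjusted p up to 0.097), and the other clone of the gene, RE09091, at -0.18 (standard error 0.057, adjusted p = 0.11), did not pass with the 7 arrays.

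**Figure D2:**
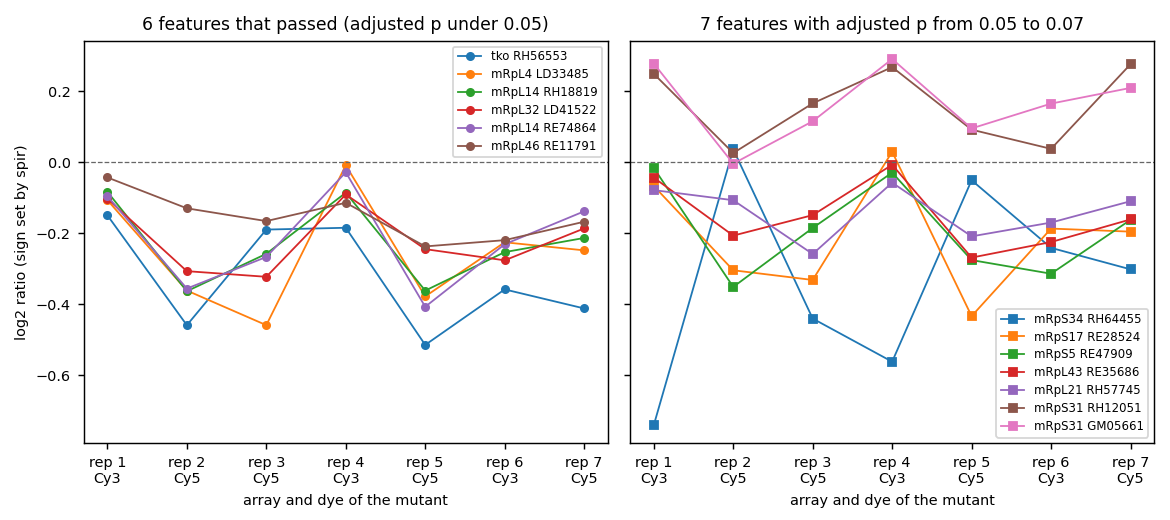
Log2 ratio on each array (lines only join the values of 1 clone) for the 6 features that passed an adjusted p under 0.05, on the left, and the 7 features with an adjusted p from 0.05 to 0.07, on the right. All values on the left lie below 0, from -0.51 to -0.0082. On the right *mRpS34* is lowest on replicates 1 and 4, where the other negative features are closest to 0, and the *mRpS31* clones lie near or above 0.

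A further 7 features lay just above the threshold, with adjusted p from 0.0505 to 0.061. *mRpS5*, whose bacterial relative lies at the mRNA entry channel, had a mean of -0.19 (standard error 0.050), and *mRpS17*, *mRpL43* and the *mRpL21* clone RH57745 had means of -0.21, -0.15 and -0.14. *mRpS34*, a mitochondrial addition to the small subunit, had the lowest mean of all members, -0.33 (standard error 0.089, adjusted p = 0.056), and the widest residual SD, 0.28. Its clone was at -0.74 on replicate 1, -0.56 on replicate 4, -0.44 on replicate 3, -0.30 on replicate 7, -0.24 on replicate 6, -0.050 on replicate 5 and 0.037 on replicate 2. This order of the arrays was unlike that of the other members, which were mostly near 0 or positive on replicates 1 and 4. Without replicate 2 *mRpS34* passed (-0.39, adjusted p = 0.026), and with any other single array left out it did not (adjusted p from 0.062 to 0.14 from *limma*). The narrowest residual SD was that of *mRpL18*, 0.047, with a mean of -0.10 and values from -0.17 to -0.030.

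The other 2 of the 7 were the *mRpS31* clones, which had the highest means of the family. *mRpS31* encodes a mitochondrial addition to the small subunit. Clone GM05661 had a mean of 0.16 (standard error 0.043, adjusted p = 0.052) and ranged from -0.0036 on replicate 2 to 0.29 on replicate 4. Clone RH12051 had a mean of 0.16 (standard error 0.044, adjusted p = 0.061) and ranged from 0.026 to 0.28, positive on 7 of 7 arrays. Neither passed with the 7 arrays, and both passed without replicate 2 (0.19 and 0.18, adjusted p of 0.027 and 0.046). With any other single array left out neither clone passed (adjusted p from 0.065 to 0.16 from *limma*). The other positive members were *mRpL20* at 0.15 and *mRpL33* at 0.12, the *mRpS24* clone at 0.088, the *mRpS9* clones RE04355 and RH44312 at 0.071 and 0.044, and *mRpL37* at 0.026, with adjusted p from 0.16 to 0.83. *mRpL20* was negative on replicate 1 alone (-0.12) and highest on replicate 2 (0.35), where the median of the family was among its lowest. *bonsai* had a mean of -0.052 (standard error 0.056, adjusted p = 0.66), with a lowest value of -0.22, a median of -0.086 and a highest of 0.18.

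In the large subunit 51 of 54 means were negative, and in the small subunit 21 of 26. The median mean log2 ratio was -0.096 for the large and -0.069 for the small subunit, a difference of -0.027. Array by array, the large subunit median was 0.031 on replicate 1, -0.19 on replicate 2, -0.13 on replicate 3, 0.042 on replicate 4, -0.24 on replicate 5, -0.17 on replicate 6 and -0.064 on replicate 7. The small subunit median was -0.011, -0.18, -0.11, 0.060, -0.18, -0.13 and 0.013 on the same arrays. Both subunits were thus low on replicates 2, 3, 5 and 6 and near 0 on replicates 1, 4 and 7. The large minus small difference averaged -0.025 ± 0.038 (SD, n = 7 arrays), was negative on 6 of 7 arrays and ranged from -0.078 on replicate 7 to 0.041 on replicate 1, so it was smaller than its spread between arrays. No test was made of this difference, since the features had been grouped with earlier results of these data known.

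**Figure D3:**
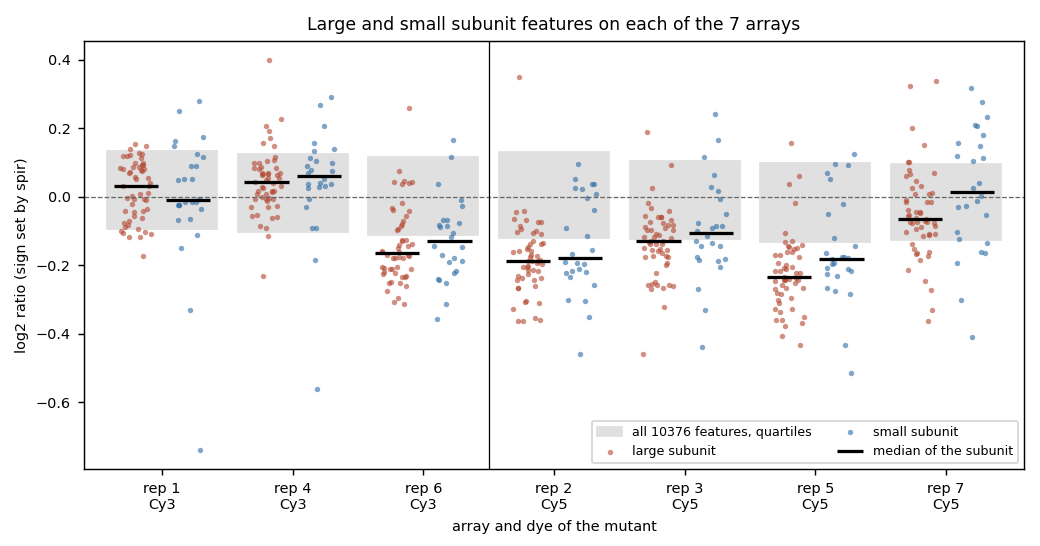
Log2 ratio of each large subunit feature (red, 54) and small subunit feature (blue, 26) on each array, grouped by the dye of the mutant. Black bars are the medians of the subunits and grey boxes the quartiles of all 10376 features. The medians of both subunits lie below the grey boxes on replicates 2, 5 and 6 and inside them on replicates 1, 4 and 7.

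As 1 family, the members had a median of 0.020 on replicate 1, -0.19 on replicate 2, -0.13 on replicate 3, 0.046 on replicate 4, -0.21 on replicate 5, -0.16 on replicate 6 and -0.047 on replicate 7. The mean of these medians was -0.096 ± 0.10 (SD, n = 7 arrays), while the medians of all features stayed between -0.018 and 0.010. The number of negative members was 72 of 80 on replicates 2 and 5, 71 on replicate 3 and 70 on replicate 6, or at least 87.5%, and then 50 on replicate 7, 37 on replicate 1 and 23 on replicate 4. Over all features the share of negative values ranged from 47.4% to 54.2%. The displacement was thus present on some arrays and not on others. Only 11 members were negative on all 7 arrays (13.8%, against 6.79% of all features), and 1, the *mRpS31* clone RH12051, was positive on all (1.25%, against 4.81%). The 11 were those of *tko*, *mRpL4*, *mRpL14* (both clones), *mRpL32*, *mRpL46* (RE11791), *mRpS5*, *mRpL43*, *mRpL21* (RH57745), *mRpL40* and *mRpL18*. The other clones of *mRpL46* and *mRpL21*, RE09091 and RE66193, were negative on 5 and 6 of the 7 arrays.

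Both arrays on which the family's median was above 0 had the mutant in Cy3, and the third array of that orientation, replicate 6, had a median of -0.16. Over the 3 arrays with the mutant in Cy3 the median of the members' means was -0.024, with 52 of 80 negative, and over the 4 arrays with the mutant in Cy5 it was -0.14, with 73 of 80 negative. For all features these medians were 0.0017 and -0.0081. A dye coefficient fitted to the labels passed an adjusted p under 0.05 (*limma*) for 3 members, the clones RE66193 of *mRpL21* (-0.13), GM04029 of *mRpL10* (-0.16) and LD05344 of *mRpL24* (-0.14), against 10.6% of all features. It was negative for 69 of the 80 members, with a median of -0.053, against -0.0048 over all features. The part of the dye in the displacement was not tested.

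With the dye coefficient in the model, 15 members passed, or 18.8%, against 11.9% of all features, 13 of them opposite to *spir* and 2, the *mRpS31* clones, with its sign. Of all 10376 features, 667 passed opposite to *spir* in this fit and 567 with its sign. These 15 were the 6 features above, the 7 just above the threshold, *mRpL21* clone RE66193 (-0.16, adjusted p = 0.013) and *mRpL46* clone RE09091 (-0.16, adjusted p = 0.036). Of the 15, 9 belonged to the large and 6 to the small subunit. These were 16.7% of the large and 23.1% of the small subunit features, against 11.9% of all features. Both subunits thus had features that passed in this fit, and the large subunit had none with the sign of *spir*.

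By number, 46 features belonged to proteins that carry the number of a bacterial ribosomal protein (L1 to L36, S1 to S21, *tko* and *bonsai*), and 34 to proteins with a higher number. The second class holds mainly mitochondrial additions, although *mRpS24* and *mRpS28* are known from mammals as relatives of bacterial S3 and S1. The medians were -0.096 and -0.084, with 42 of 46 and 30 of 34 means negative. Of the features that passed, 5 were in the first class (10.9%) and 1, *mRpL46*, in the second (2.94%), against 7.64% of all features. With the dye coefficient the shares were 19.6% and 17.6%, against 11.9%. The 11 small subunit features of higher number included both the lowest member, *mRpS34*, and the highest, *mRpS31*, with a median of -0.068, quartiles of -0.095 and 0.039 and 8 means negative. On replicate 2, where the other large and small classes had medians from -0.21 to -0.16, these 11 features had a median of 0.0091 and 5 were negative.

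The means of clones of the same gene were close to each other. Of the 65 genes 15 were represented by 2 clones each, and in all 15 the means of both clones had the same sign. Since 72 of the 80 member means were negative, most pairs of members would share a sign. Whether clones of a gene were closer than other members was not tested. The difference between the means was 0.018 at the median and ranged from 0.0051 for *mRpS31* to 0.076 for *mRpL10*. On single arrays the mean absolute difference between the clones was 0.062 at the median. *mRpL12* and *mRpL10* form the stalk that binds translation factors. The *mRpL12* clones had means of -0.13 and -0.11, and those of *mRpL10* had -0.18 and -0.10, and none of the 4 passed. The *mRpL38* clones were the pair with the largest difference on single arrays on average, 0.15, and had the same sign on 3 of 7 arrays although their means were -0.13 and -0.094. The clones of *mRpL9*, *mRpL30*, *mRpL45*, *mRpL52* and *mRpS11* had means from -0.13 to -0.084, and those of *mRpS10* and *mRpL50* from -0.068 to -0.016, and none passed. The clones of a gene share its sequence and the same RNA and are not replicates of the condition.

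**Figure D4:**
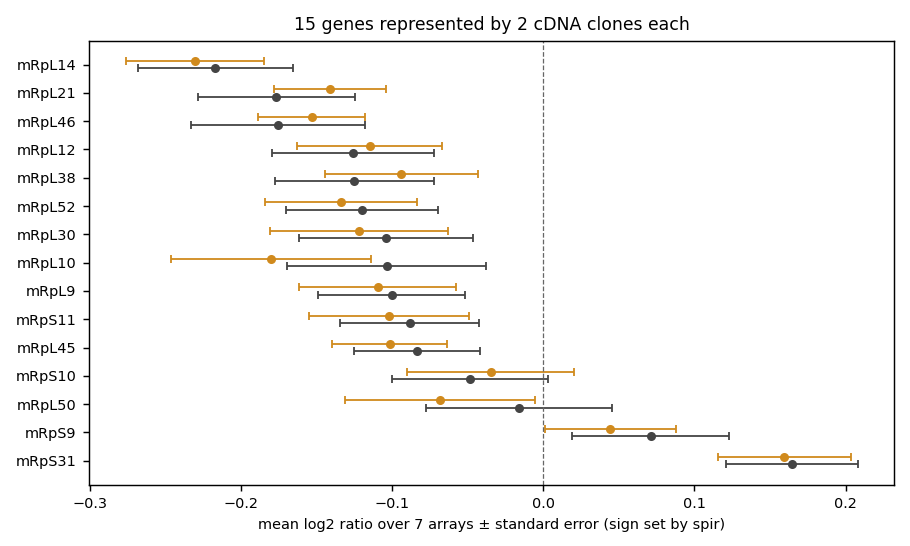
Mean log2 ratio over the 7 arrays with its standard error for each of the 2 clones (grey and orange) of the 15 genes represented by 2 clones. The clones of a gene lie within 0.076 of each other, *mRpL14* is lowest and *mRpS31* highest.

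Other nuclear genes of the mitochondrion were set beside the family. Of 74 features of respiratory chain and ATP synthase subunits, 6 were opposite to *spir* and passed (*limma*, adjusted p under 0.05), none passed with its sign, and 68 did not pass. The share that passed was 8.11%, against 7.64% of all features in either direction and 4.46% opposite to *spir*. At an unadjusted p under 0.05 (*limma*) there were 11 opposite to *spir*, against 1263 of all 10376 features, and none with its sign, against 1008. In all these were 14.9% of the list, against 21.9% of all features. The median was -0.064, and 63 of the 74 means were negative (85.1%, against 46.5% of all features). The 6 included *ND-18*, a subunit of complex I, at -0.46 (standard error 0.056) and both clones of *ATPsyndelta*, which encodes the delta subunit of ATP synthase, at -0.38 and -0.42 (standard errors of 0.063 and 0.072). By array the list's median was 0.13 on replicate 1, -0.20 on replicate 2, -0.12 on replicate 3, 0.099 on replicate 4, -0.26 on replicate 5, -0.13 on replicate 6 and 0.0054 on replicate 7. These medians lay on the same side of 0 as those of the ribosomal proteins on 6 of the 7 arrays, all but replicate 7, and all lists were read on the same arrays.

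Of 22 features of mitochondrial import and chaperones 3 passed and were negative, *Tim23* of the inner membrane translocase at -0.32, *blp* at -0.26 and *Trap1* at -0.15, and the median was -0.088. The share that passed was 13.6%, against 7.64% of all features (4.46% opposite to *spir*), and rests on these 3 features. Of the 22 means 20 were negative (90.9%, against 46.5% of all features). Among 16 features of mitochondrial translation, transcription and RNA factors 1 passed, *mEFG1*, a mitochondrial elongation factor, at -0.21 (standard error 0.054, adjusted p = 0.045), and the median was -0.040. Among 15 features of mitochondrial aminoacyl-tRNA synthetases 1 passed, *AspRS-m* at -0.28 (standard error 0.071, adjusted p = 0.045), and the median was -0.0073. Both were positive on replicate 2, at 0.062 and 0.10, and negative on the 6 other arrays. These were 6.25% and 6.67% of the lists, against 7.64% of all features in either direction and 4.46% opposite to *spir*. In these lists 12 of 16 and 9 of 15 means were negative.

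For the cytosolic ribosome, whose proteins are encoded by other genes, most means had the other sign. Of 47 features of its proteins, 11 means were negative and 36 positive, with a median of 0.044, against 72 negative and 8 positive in mitochondrial ribosomal proteins. *RpL28* (0.25) and *RpS5b* (0.96), which passed, had the sign of *spir*, and none with the opposite sign passed. The share that passed was 4.3%, against 7.64% of all features (3.18% with the sign of *spir*). At an unadjusted p under 0.05 (*limma*) there were 7 with the sign of *spir*, against 1008 of all 10376 features. With the opposite sign there were 2, against 1263 of all features. In all these were 19.15% of the list, against 21.9% of all features. On replicate 7 the cytosolic median was 0.19 and the mitochondrial one -0.047, and on replicate 2 they were -0.13 and -0.19. Both medians had the same sign on 5 of 7 arrays, positive on replicates 1 and 4 and negative on replicates 2, 3 and 5, and on each of the 7 arrays the cytosolic median was the higher one. This difference between the lists was not tested.

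**Figure D5:**
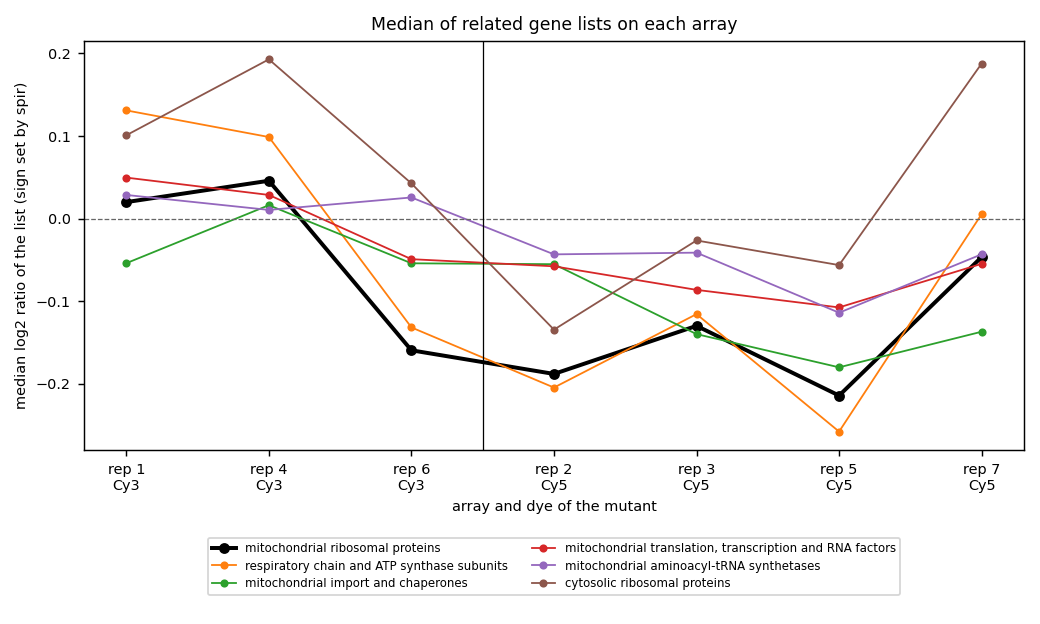
Median log2 ratio on each array of the mitochondrial ribosomal protein features (black, 80 features) and of 5 related gene lists, grouped by the dye of the mutant (lines only join the values of 1 list). The black line runs from -0.21 on replicate 5 to 0.046 on replicate 4, and the line of the cytosolic ribosomal proteins lies above it on every array.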

How the data were processed

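The authors took GenePix spot intensities into *limma* (version not given in the sources used here). They subtracted no background and applied print-tip loess to each array and then a scale step between arrays. The deposited value is a log2 ratio for each feature on each array. No value was missing. The number of arrays limits the precision, and no intensities were used here, so the brightness of a spot is unknown.

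All values were multiplied by -1, which makes *spir* positive. Each feature's mean over the 7 arrays was tested against 0 by lmFit and eBayes of *limma* 3.58.1 in R 4.3.3. P-values were adjusted by Benjamini and Hochberg's method over the 10376 features, with a threshold of 0.05. The procedure was tested on simulated data. Gene symbols came from the platform annotation: 8598 features had 1, 517 several and 1261 none.

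The members, lists and tests were chosen with earlier results of these data known. Named features were all that passed, the 6 lowest and 6 highest means, *tko*, *bonsai*, *mRpL4*, genes with 2 clones, and the extremes of residual SD. *mRpS5*, *mRpS17*, *mRpL43*, *mRpL24*, *mRpL37*, *mRpL40* and *mRpS28*, and the features of other lists, were named after their values were seen. Planned promoter motifs were not analysed here. Alternatives were leaving out 1 array at a time, a dye coefficient, array weights, centring on the median, quantile normalization, a robust eBayes, averaging clones, other thresholds, testing only features with 1 gene symbol, and current symbols.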

Additional observations from a re-analysis of the deposited data

How the results depend on the processing

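The number of members that passed depended on the settings, and the medians on which dye orientation was used. Leaving out 1 array gave 2 to 7 members that passed, 2 to 7 opposite to *spir* and 0 to 2 with its sign, 1 to 5 of the large and 1 to 4 of the small subunit. The count was 2 without replicate 3 and without replicate 5, and 3 without replicate 6 and without replicate 7. Over all features it fell from 793 to 446, 441, 614 and 494. Without replicate 1, 2 or 4 the count was 7, and over all features it was 690, 810 and 536. With a dye coefficient 15 members passed, 13 opposite to *spir* and 2 with its sign, 9 of the large and 6 of the small subunit, and an adjusted p under 0.10 gave the same 5 numbers. Over all features 11.9% passed with the dye coefficient, 8.91% with array weights, 8.29% with quantile normalization and 7.56% with centring. With array weights 12 passed (10 opposite, 2 with the sign of *spir*, 6 small subunit), with quantile normalization 10 (1 with the sign of *spir*, 3 small subunit), with each array centred on its median 7 (1 with the sign of *spir*, 2 small subunit), and with the clones of a gene averaged 7 of 65 genes (1 with the sign of *spir*, 3 small subunit). At an adjusted p under 0.01, 1 member passed, *tko*, and 0 of the large subunit. The share over all features was not counted at the other thresholds or with the clones of a gene averaged. Robust empirical Bayes, current symbols and testing only features with 1 gene symbol left the counts at 6. The median of the members lay between -0.11 and -0.067 with 1 array left out and was -0.082, -0.084, -0.090 and -0.085 with the dye coefficient, centring, quantile normalization and array weights, and -0.14 on the Cy5 arrays and -0.024 on the Cy3 arrays alone, a setting added after the data were seen. The large minus small difference lay between -0.032 and -0.022 when an array was left out and was -0.017 with the clones of a gene averaged, 0.00063 on the Cy3 arrays and -0.043 on the Cy5 arrays. Of the features named by rule, 1 changed sign: *mRpL50* clone GM06185 (-0.016) ranged from -0.051 to 0.023 when 1 array was left out and was above 0 without replicate 2, 3 or 5. The cause of these differences was not tested.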

Other observations

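None of the 80 member features, nor the family's or the subunits' medians, held a single array that stood apart from the other 6 by Dixon's test at its 95% critical value. *mRpS9* overlaps *ArgRS-m* in the current gene table, and the *ArgRS-m* clone RE18459 had a mean of -0.0030 beside 0.071 and 0.044 for the *mRpS9* clones. *mRpS9* also overlaps *wtrw*, whose clones HL04706 and RH15640 had means of 0.12 and 0.062, with the sign of the *mRpS9* clones. *mRpL32* overlaps *CG1750*, whose clone LD21457 had a mean of -0.058 beside -0.22, and *mRpS34* overlaps *Golgin104*, whose clone LD45682 had -0.077 beside -0.33. None of these overlapping genes passed the test.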
